A study of Mus musculus with 18 samples.

Results

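The 10 genes described here encode CCN matricellular proteins (Ccn1, Ccn2, Ccn3, Ccn4 and Ccn5, formerly Cyr61, Ctgf, Nov, Wisp1 and Wisp2) and components of YAP-TEAD transcription (Yap1, Wwtr1, Tead1, Tead4 and Amotl2). They were chosen by name from these families, with results of these libraries already known, so their values and adjusted p-values are given as a description. They are 10 of the 55414 genes in the count table, and all 10 entered the test, which covered the 21772 genes whose counts summed to 10 or more over all libraries. RNA-seq was performed in C2C12 myotubes, which form by fusion of an established line of mouse myoblasts, after silencing of Erk3 (gene Mapk6) or its partner kinase Mk5 (gene Mapkapk5), to relate these kinases to the response of muscle cells to lipid overload. Confluent myoblasts received a pool of siRNAs against Erk3 (siErk3), a pool against Mk5 (siMk5) or non-targeting siRNA (siNtc), were differentiated for 6 days, and then spent 16 h without serum in 0.5 mM palmitic acid bound to BSA (PA) or in BSA alone (BSA). Each of the 6 groups comprised 3 libraries, 18 in all, of a single cell line, and whether the libraries of a group came from separate cultures is not stated, so p-values measure the spread between libraries only.

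CCN proteins are secreted, cysteine-rich modulators of the extracellular matrix that bind integrins, proteoglycans and growth factors, and in muscle they are linked to regeneration and fibrosis. The coactivators YAP (Yap1) and TAZ (Wwtr1) lack a DNA-binding domain and act through TEAD factors, which recognize the sequence GGAATG, and the Hippo kinases Stk3, Stk4, Lats1 and Lats2 restrain them by phosphorylation. Ccn1, Ccn2 and Amotl2 are classical transcriptional targets of YAP and TAZ, and the angiomotin protein made from Amotl2 in turn holds YAP at cell junctions.

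In the count table (GRCm39), Ccn1 (ENSMUSG00000028195) lies on chr3:145352731-145355736 and Ccn2 (ENSMUSG00000019997) on chr10:24471340-24474581, and Ccn3 (ENSMUSG00000037362) and Ccn4 (ENSMUSG00000005124) share a chromosome at chr15:54609098-54617435 and chr15:66763169-66795050. Ccn5 (ENSMUSG00000027656) lies on chr2:163662781-163675066, Yap1 (ENSMUSG00000053110) on chr9:7932000-8004597, Wwtr1 (ENSMUSG00000027803) on chr3:57363070-57483331, Tead1 (ENSMUSG00000055320) on chr7:112278525-112506014, Tead4 (ENSMUSG00000030353) on chr6:128201251-128277786 and Amotl2 (ENSMUSG00000032531) on chr9:102593871-102610617. None of the 10 genes shared exonic bases with another gene on its own strand, and counting used the strand. On the opposite strand, Gm15270 overlapped 23.2% of the exonic bases of Ccn2 and Gm20416 overlapped 1.25% of those of Yap1.

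A promoter window, 250 bases before to 50 bases after the RefSeq start site (table build GRCm38.p6), was held for 4 of the 10 genes, namely Ccn1, Amotl2, Yap1 and Wwtr1, and each window matched GRCm39 exactly once. The other genes are Ccn2, Ccn3, Ccn4, Ccn5, Tead1 and Tead4. The windows are shown because each of the 4 contains the TEAD sequence GGAATG, read on either strand, which was present in 14.7% of all 32851 windows in the table. Below, capitals mark matches to GGAATG or its reverse complement CATTCC and, in Ccn1, also the TATA box TATAAA (found in 13.6% of windows), and sequences run 5′ to 3′ along the gene. For Ccn1 the 250 bases before the start site are given (chr3:145355741-145355990, minus strand, GRCm39) and for Amotl2 likewise (chr9:102594753-102595002, plus strand), where the RefSeq start site lies inside the gene as counted. For Yap1 (chr9:8004713-8004758, minus strand) and Wwtr1 (chr3:57483442-57483487, minus strand) the match is shown with 20 bases on either side.
Ccn1: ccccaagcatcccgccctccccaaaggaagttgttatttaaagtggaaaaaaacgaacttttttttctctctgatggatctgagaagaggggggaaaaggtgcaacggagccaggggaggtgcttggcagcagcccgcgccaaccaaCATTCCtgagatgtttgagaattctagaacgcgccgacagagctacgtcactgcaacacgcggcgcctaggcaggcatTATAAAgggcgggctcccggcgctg
Amotl2: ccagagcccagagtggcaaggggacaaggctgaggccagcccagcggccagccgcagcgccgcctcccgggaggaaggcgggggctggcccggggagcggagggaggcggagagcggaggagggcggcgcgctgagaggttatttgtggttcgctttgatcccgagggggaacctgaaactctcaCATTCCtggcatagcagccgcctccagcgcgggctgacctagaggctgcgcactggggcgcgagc
Yap1: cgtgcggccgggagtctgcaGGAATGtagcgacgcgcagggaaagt
Wwtr1: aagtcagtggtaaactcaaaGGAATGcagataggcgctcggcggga
The match began at base -103 from the start site in Ccn1 and at base -65 in Amotl2, both as CATTCC, and at base -141 in Yap1 as GGAATG. Wwtr1 has 2 overlapping windows in the table, in which the same GGAATG lay at base -170 or -136. The TATA box of Ccn1 began at base -25. Neither the AP-1 sequence TGANTCA (7.81% of windows) nor a CArG box, the binding sequence of serum response factor (1.63% of windows), matched in the windows of the 4 genes on either strand. These are matches of letters and were not tested for binding.

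Total counts ranged from 13041979 to 28496727 per library, and levels are given as CPM, the count scaled to the library's total after TMM normalization. The share of counts on 18S ribosomal RNA reached 12.9% and was highest, at 8.39% to 12.9%, in siMk5 BSA. Mapk6 ranged from 129 to 135 CPM in siNtc BSA and from 55.2 to 60.4 CPM in siErk3 BSA, and from 215 to 244 CPM in siNtc PA and from 109 to 131 CPM in siErk3 PA (fold changes of 0.434 and 0.518). Mapkapk5 ranged from 2.32 to 2.54 CPM in siNtc BSA and from 1.18 to 2.01 CPM in siMk5 BSA, and from 2.52 to 3.92 CPM in siNtc PA and from 2.17 to 2.43 CPM in siMk5 PA, which did not pass the test (edgeR FDR 0.469 in each medium). At the protein level, the study reports silencing of both kinases by Western blot, and lower Erk3 protein after Mk5 silencing. Myotube markers were abundant in every library, with at least 2830 CPM of Acta1 and 1830 CPM of Des, and none of 5 adipocyte markers reached the count minimum. Among fibroblast markers, Col1a1 and Col3a1 were abundant whereas Thy1 had at most 4 counts in a library.

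The 10 genes differed widely in abundance. Divided by exonic length, the mean over the 18 libraries was 102 CPM per kb for Ccn4, 96.2 for Ccn1 and 74.0 for Wwtr1. Amotl2 (29.3 CPM per kb), Tead4 (26.5) and Ccn2 (26.2) formed a middle tier, followed by Tead1 (15.9) and Yap1 (12.3). Ccn5 stood at 5.21 CPM per kb, and Ccn3 was close to the detection limit with 0.317 CPM per kb and 10 to 31 counts per library. In siNtc BSA the order was Ccn4, Ccn1, Wwtr1, Amotl2, Tead4, Ccn2, Tead1, Yap1, Ccn5 and Ccn3, in which only Tead4 and Ccn2 overlapped as neighbours. In siNtc PA, Ccn1 (92.8 ± 3.05 CPM per kb, SD, n = 3) stood above Ccn4 (85.7 ± 1.29) and Ccn2 (23.8 ± 0.856) above Amotl2 (22.3 ± 0.661), with no overlap between neighbours. TAZ mRNA thus exceeded YAP mRNA per kb in both media with siNtc, at 77.4 ± 1.06 against 11.5 ± 0.140 CPM per kb in BSA and 71.6 ± 1.03 against 12.8 ± 0.142 in PA. The order of the genes depends on the division by exonic length, which covers all annotated exons of a gene. In mean CPM over the 18 libraries, Tead1 (215) stood above Ccn1 (194), and Yap1 (113) above Tead4 (95.5) and Ccn2 (74.9).

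**Figure D1:**
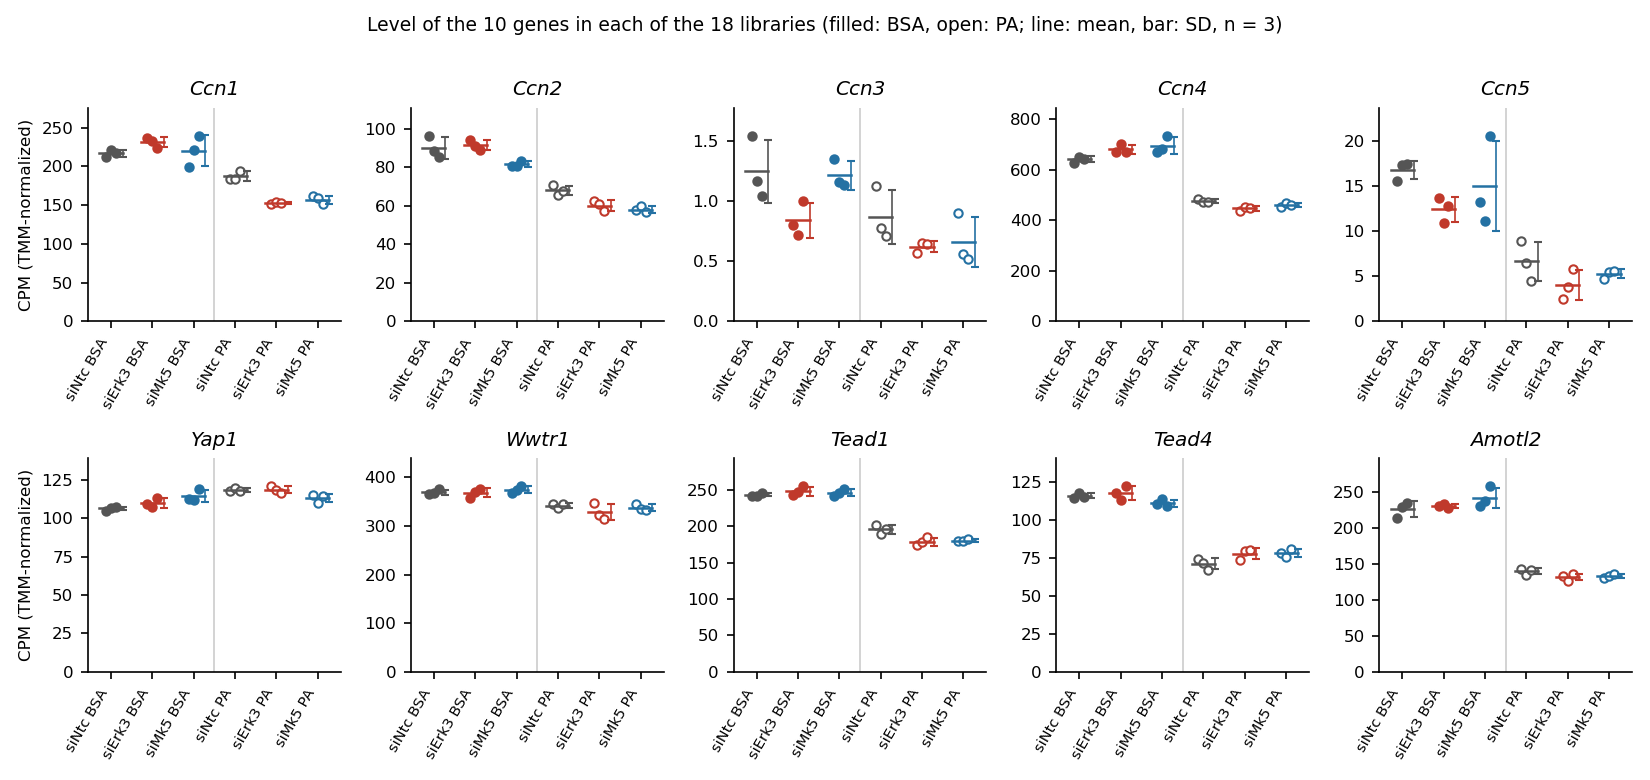
Level of each of the 10 genes, in TMM-normalized CPM on linear axes from 0, in the 18 libraries (filled circles, BSA; open circles, PA; grey, siNtc; red, siErk3; blue, siMk5), with the group mean as a line and the SD as a bar (n = 3). For 8 of the 10 genes, all but Ccn3 and Yap1, every PA library lay below every BSA library, as for 14.4% of all genes tested, and Yap1 did not exceed 121 CPM.

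The first comparison asked how these genes responded to lipid overload, separately in each siRNA arm. PA lowered most of them: by an FDR below 0.05 and a fold change above 1.3, 5 of the 10 genes were lower and none was higher in siNtc, 7 were lower in siErk3 and 8 in siMk5. Ccn2, Ccn4, Ccn5, Tead4 and Amotl2 fell in all 3 arms, Ccn1 and Tead1 also passed in siErk3 and siMk5, and Ccn3 also passed in siMk5. These criteria called 30.6% of all genes tested in siNtc, 32.1% in siErk3 and 29.7% in siMk5, and in the lower direction alone 15.1%, 16.3% and 14.6%. The median log2 fold change of the 10 genes was -0.42 in siNtc, -0.60 in siErk3 and -0.50 in siMk5, while that of all genes tested was -0.03, -0.01 and -0.01. By FDR alone 9 of the 10 genes passed in each arm, where 45.1%, 47.1% and 44.3% of all genes did. The genes were chosen with these comparisons known, so nothing is read from their share. In bulk RNA, fewer cells of a type and less RNA per cell cannot be told apart.

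Ccn5, a CCN protein without the carboxy-terminal domain of the other family members, showed the largest decrease of the 10 genes in each arm. Its level was 15.6, 17.3 and 17.4 CPM in siNtc BSA and 8.91, 6.52 and 4.50 CPM in siNtc PA. In siErk3 it was 13.7, 10.9 and 12.8 CPM in BSA and 2.45, 3.80 and 5.81 CPM in PA. In siMk5 it was 13.3, 11.1 and 20.6 CPM in BSA and 4.72, 5.50 and 5.62 CPM in PA. Every PA library thus lay below every BSA library of its arm. The spread was wide for so low a level in the PA libraries of siNtc and siErk3 and in the BSA libraries of siMk5. The log2 fold change was -1.33 ± 0.193 (SE) in siNtc, -1.65 ± 0.210 in siErk3 and -1.50 ± 0.204 in siMk5, with edgeR FDR values of 7.80e-07, 6.81e-08 and 2.44e-07.

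Ccn1, a ligand of alpha-v integrins and an early-responding target of YAP, was lower in PA in each arm. It stood at 212, 221 and 218 CPM in siNtc BSA and at 184, 183 and 194 CPM in siNtc PA. In siErk3 the levels were 237, 233 and 224 CPM in BSA and 152, 154 and 153 CPM in PA. In siMk5 they were 199.8, 221 and 239.6 CPM in BSA and 161, 159 and 152 CPM in PA. PA and BSA libraries did not overlap in any arm, but the siNtc PA libraries remained above those of both silenced arms in PA. The log2 fold change in siNtc, -0.21 ± 0.050 (SE), passed the FDR (0.000681, edgeR) and missed the fold criterion, whereas those in siErk3 (-0.60 ± 0.050, FDR 1.21e-11) and siMk5 (-0.49 ± 0.050, FDR 1.25e-09) passed both.

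Ccn2, the connective tissue growth factor, ranged from 85.5 to 96.4 CPM in siNtc BSA and from 65.7 to 70.6 CPM in siNtc PA. In siErk3 it ranged from 89.1 to 94.1 CPM in BSA and from 57.1 to 62.4 CPM in PA, and in siMk5 from 80.6 to 83.4 CPM in BSA and from 56.7 to 59.8 CPM in PA. The groups were separate in each arm, and the log2 fold change was -0.40 ± 0.050 (SE) in siNtc, -0.60 ± 0.050 in siErk3 and -0.49 ± 0.051 in siMk5. In siNtc this lay close to the fold criterion, and without siNtc BSA library 1 (96.4 CPM, the highest) it was -0.38 and no longer counted.

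Ccn4, a target of Wnt signaling, ranged from 629 to 652 CPM in siNtc BSA and from 471 to 485 CPM in siNtc PA. It ranged from 669.6 to 703 CPM in siErk3 BSA and from 438 to 454 CPM in siErk3 PA, and from 672 to 736 CPM in siMk5 BSA and from 453 to 469.7 CPM in siMk5 PA. The log2 fold change was -0.43 ± 0.041 (SE) in siNtc, -0.61 ± 0.041 in siErk3 and -0.60 ± 0.042 in siMk5. Ccn3 had 10 to 31 counts per library, and its log2 fold changes of -0.48 ± 0.266 in siNtc and -0.44 ± 0.285 in siErk3 did not pass (edgeR FDR 0.153 and 0.22). In siMk5 its 3 libraries had 31, 23 and 22 counts in BSA and 20, 12 and 10 in PA, with a log2 fold change of -0.87 ± 0.279 (FDR 0.0107). This call was lost without siMk5 PA library 2 (FDR 0.0518) or 3 (FDR 0.0529), and with the 18S share as a covariate (FDR 0.0614).

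Both coactivators changed little. Yap1 did not exceed 107 CPM in siNtc BSA and ranged from 118 to 119.9 CPM in siNtc PA, from 107 to 113 CPM in siErk3 BSA and from 116 to 121 CPM in siErk3 PA, and overlapped between media in siMk5 (112 to 119 CPM in BSA, 109.9 to 115 CPM in PA). The log2 fold change was 0.16 ± 0.043 (SE), 0.11 ± 0.042 and -0.02 ± 0.042 in siNtc, siErk3 and siMk5, of which the first 2 passed the FDR but not the fold criterion, and the 95% interval reached no further than 0.24 on the higher side. Wwtr1 ranged from 359 to 382 CPM over the 9 BSA libraries and from 314 to 347 CPM over the 9 PA libraries, and its log2 fold changes of -0.11, -0.17 and -0.15 (SE 0.042 each) passed the FDR alone.

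The DNA-binding partners were more affected. Tead4, a TEAD factor induced in myoblast differentiation, was 115, 118 and 116 CPM in siNtc BSA and 74.4, 72.1 and 67.3 CPM in siNtc PA. It was 118, 113 and 122 CPM in siErk3 BSA and 73.7, 79.4 and 80.6 CPM in siErk3 PA. It was 110.4, 114 and 109 CPM in siMk5 BSA and 78.3, 75.9 and 81.2 CPM in siMk5 PA. The media were far apart in each arm, with log2 fold changes of -0.71 ± 0.049 (SE), -0.60 ± 0.048 and -0.50 ± 0.049 in siNtc, siErk3 and siMk5. Tead1, the TEAD factor that binds the MCAT elements of muscle genes, ranged from 241 to 255 CPM over the BSA libraries and from 174 to 202 CPM over the PA libraries. Its log2 fold change of -0.31 ± 0.041 in siNtc missed the fold criterion, and those of -0.47 ± 0.041 in siErk3 and -0.45 ± 0.041 in siMk5 passed.

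Amotl2, target and inhibitor of YAP, was 214, 230.1 and 235 CPM in siNtc BSA and 143, 135 and 141 CPM in siNtc PA. It was 231, 233 and 229 CPM in siErk3 BSA and 134, 127 and 136 CPM in siErk3 PA. It was 231, 238 and 258 CPM in siMk5 BSA and 130.4, 133 and 136 CPM in siMk5 PA. No PA library reached the lowest BSA library, and the log2 fold change was -0.69 ± 0.047 (SE), -0.81 ± 0.047 and -0.86 ± 0.047 in siNtc, siErk3 and siMk5 (edgeR FDR 1.36e-13, 3.07e-15 and 9.20e-16).

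**Figure D2:**
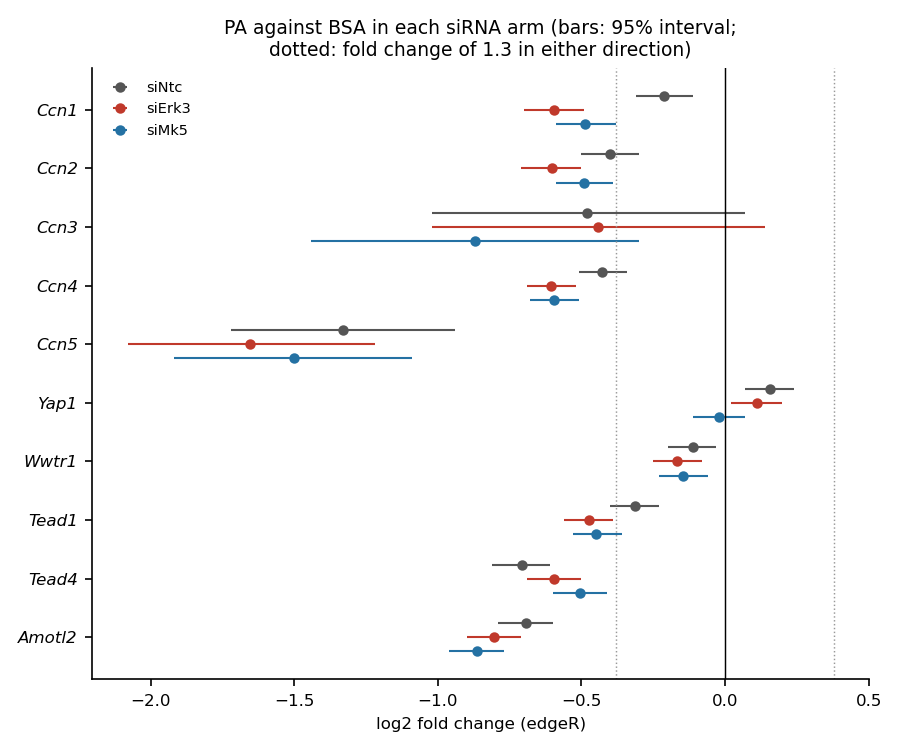
log2 fold change of PA against BSA (horizontal axis) for each gene in siNtc (grey), siErk3 (red) and siMk5 (blue), with 95% intervals from the edgeR fit and dotted lines at a fold change of 1.3 in either direction. Ccn5 lies furthest to the left, at -1.33, -1.65 and -1.50, and Yap1 is nearest to 0, at 0.16, 0.11 and -0.02.

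The next comparisons asked whether silencing of Erk3 or Mk5 changed these genes within a medium. None of the 10 genes passed both criteria in any of the 4 comparisons with siNtc, by edgeR or by DESeq2, and the same criteria called 0.785% of all genes in siErk3 BSA, 0.556% in siErk3 PA, 0.0643% in siMk5 BSA and 0.547% in siMk5 PA. Without adjustment, p was below 0.05 for 2 of the 10 genes in siErk3 BSA, 6 in siErk3 PA, 4 in siMk5 BSA and 4 in siMk5 PA, and for 10.6%, 8.28%, 6.89% and 6.79% of all genes. By FDR alone 1 gene passed in siErk3 PA (Ccn1) and 2 in siMk5 PA (Ccn1 and Ccn2), beside 0.854% and 0.776% of all genes. The siErk3 and siMk5 comparisons in a medium share the siNtc libraries.

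Ccn1 in PA was 152, 154 and 153 CPM in siErk3 and 161, 159 and 152 CPM in siMk5, each below the lowest siNtc library (183 CPM). The log2 fold change was -0.29 ± 0.050 (SE, edgeR FDR 0.00099) in siErk3 and -0.25 ± 0.050 (FDR 0.00455) in siMk5, that is, fold changes of 0.817 and 0.839. In BSA the corresponding values were 0.09 ± 0.050 (FDR 0.535) and 0.02 ± 0.050 (FDR 0.961), and the siMk5 BSA libraries spanned those of siNtc. With single libraries left out, the FDR in PA ranged from 0.00344 to 0.0122 in siErk3 and from 0.0123 to 0.0639 in siMk5, where it passed 0.05 without siNtc PA library 3 (0.0639) or siMk5 PA library 3 (0.057).

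Ccn2 in PA was lower in siMk5 (56.7 to 59.8 CPM) than in siNtc (65.7 to 70.6 CPM), at a log2 fold change of -0.23 ± 0.051 (SE, edgeR FDR 0.0169), and its value in siErk3 PA was -0.18 ± 0.051 (FDR 0.118). With single libraries left out, the siMk5 value stayed below an FDR of 0.05 without siNtc PA library 2 or siMk5 PA library 2, and without siNtc PA library 1 or 3 or siMk5 PA library 1 or 3 the FDR was 0.169, 0.0798, 0.106 and 0.126. Ccn5 had larger but less certain differences in siErk3, with log2 fold changes of -0.44 ± 0.172 in BSA (FDR 0.325) and -0.76 ± 0.236 in PA (FDR 0.183). In PA the siErk3 libraries of Ccn5 (2.45 to 5.81 CPM) overlapped those of siNtc (4.50 to 8.91 CPM). This comparison depended on single libraries: without siNtc PA library 3 it was -0.96 (FDR 0.029) and without siErk3 PA library 3 it was -1.07 (FDR 0.0147), both then past the criteria.

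For the YAP-TEAD genes the estimates were small and the intervals narrow. In siErk3 the log2 fold changes of Yap1, Wwtr1, Tead1, Tead4 and Amotl2 were 0.05, -0.01, 0.03, 0.02 and 0.03 in BSA and 0.00, -0.06, -0.13, 0.13 and -0.09 in PA. In siMk5 they were 0.11, 0.02, 0.02, -0.06 and 0.10 in BSA and -0.07, -0.02, -0.12, 0.14 and -0.07 in PA. The 95% interval that reached furthest from 0, that of Tead4 in siMk5 PA, ran from 0.04 to 0.24, so the 1.3-fold criterion lay outside each of them. Tead1 was lower than every siNtc library in both silenced arms in PA (174 to 185 CPM in siErk3 and 179 to 182 CPM in siMk5 against 189.6 to 202 CPM), without passing the FDR (0.181 and 0.355, edgeR). Direct comparison of siErk3 with siMk5 called none of the 10 genes in BSA or in PA by edgeR or DESeq2, against 0.588% and 1.03% of all genes. Unadjusted p was below 0.05 for 1 of the 10 genes in BSA, Ccn2 (log2 difference 0.17 ± 0.049), and for 0 in PA, beside 8.49% and 10.2% of all genes.

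**Figure D3:**
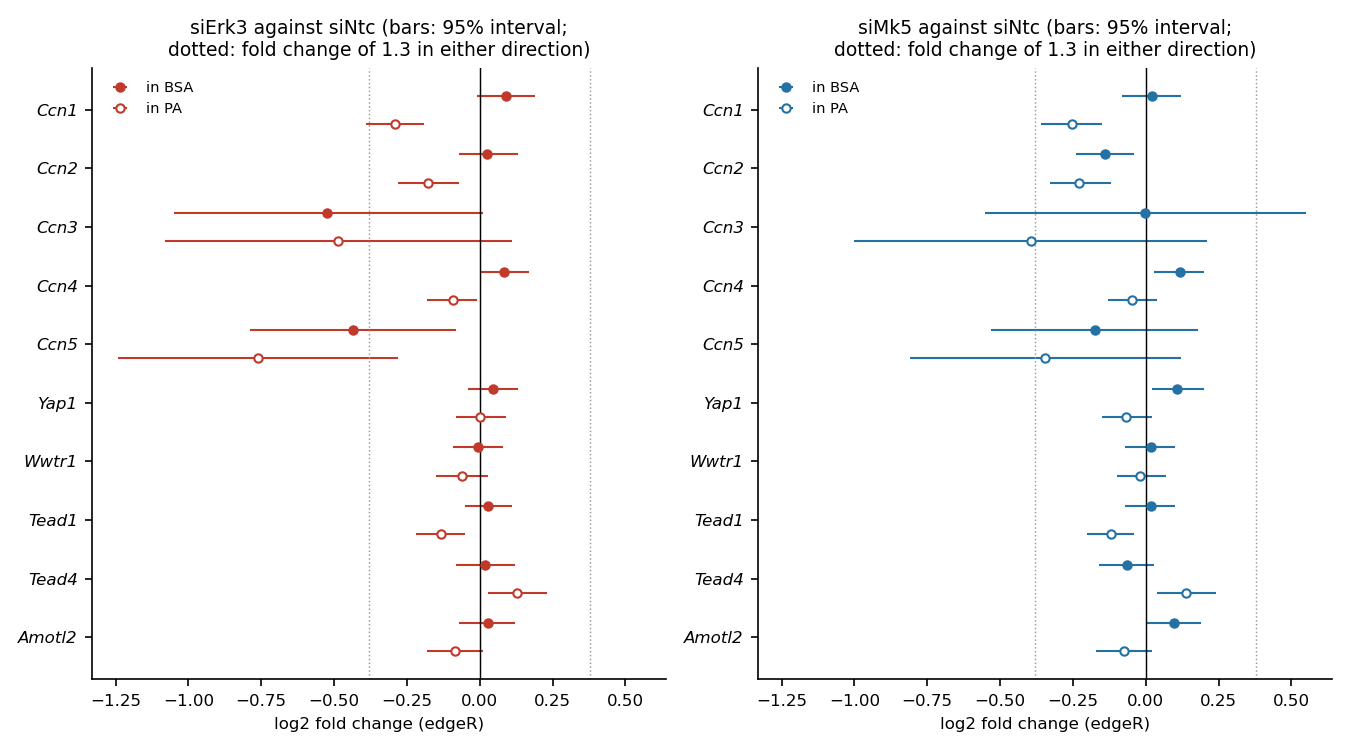
log2 fold change against siNtc (horizontal axis) for each gene in siErk3 (left, red) and siMk5 (right, blue), in BSA (filled) and in PA (open), with 95% intervals from the edgeR fit and dotted lines at a fold change of 1.3 in either direction. Ccn1 shifts from 0.09 in BSA to -0.29 in PA for siErk3 and from 0.02 to -0.25 for siMk5, while the intervals of Ccn3 and Ccn5 are several times wider than those of the other genes.

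Whether the response to PA differed between silenced and control myotubes was tested by the interaction of siRNA and medium. For siErk3, 1 of the 10 genes passed both criteria, Ccn1, with an interaction of -0.38 ± 0.071 (SE, log2, edgeR FDR 0.0407), against 0.0367% of all genes. This is the difference between the fall of 0.60 in siErk3 and that of 0.21 in siNtc, on the log2 scale. It lies at the edge of both criteria: over 12 omissions of a single library it ranged from -0.41 to -0.35 with an FDR from 0.0228 to 0.252, and it passed both criteria in 1 of the 12, without siErk3 BSA library 3, and in none of the other omissions. Over 9 other settings it ranged from -0.38 to -0.36 and passed in 3 (the replicate block, FDR alone and the compared groups alone). FDR alone keeps the same fit and drops only the fold criterion, so passing there was given. For siMk5 none of the 10 genes passed by edgeR or by DESeq2 (0.211% of all genes), and the interaction of Ccn1 was -0.27 ± 0.071 (edgeR FDR 0.125). Unadjusted p was below 0.05 for 6 of the 10 genes and 7.43% of all genes. Beside Ccn1 these were Ccn4 (-0.17), Yap1 (-0.18), Tead1 (-0.14) and Amotl2 (-0.17), and Tead4 (0.20), which went the other way. The 2 interactions share the siNtc libraries. The other Ccn genes had siErk3 interactions of -0.20 ± 0.071 (Ccn2), 0.04 ± 0.404 (Ccn3), -0.18 ± 0.058 (Ccn4) and -0.32 ± 0.293 (Ccn5), and none of these passed the test. Those of the YAP-TEAD genes, none of which passed, were -0.05 ± 0.060 (Yap1), -0.06 ± 0.059 (Wwtr1), -0.16 ± 0.058 (Tead1), 0.11 ± 0.068 (Tead4) and -0.11 ± 0.066 (Amotl2).

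The relatives of the 10 genes were examined as a list of 9, of which Ccn6 and Vgll1 had too few counts. Beside this list and those that follow, PA against BSA called 30.6% of all genes tested in siNtc, 32.1% in siErk3 and 29.7% in siMk5. In siNtc, PA lowered Tead3 (log2 fold change -0.73), the angiomotin Amot (-0.76) and the TEAD cofactor Vgll3 (-0.55) and raised Amotl1 (0.39), and Tead2 (-0.26) and the TEAD cofactor Vgll4 (-0.30) passed the FDR alone. Vgll4 passed both criteria in siErk3 (-0.43) and siMk5 (-0.43). Thus 2 angiomotins fell while the third rose, and Amotl1 rose by 0.41 in siErk3 and 0.40 in siMk5. Vgll2, a TEAD cofactor of skeletal muscle, was the single relative called on silencing. It was higher in siErk3 than in siNtc in BSA (13.3 ± 1.12 against 8.50 ± 0.853 CPM, SD, n = 3; log2 fold change 0.64) and in PA (12.8 ± 0.759 against 9.25 ± 0.850 CPM; 0.48), with edgeR FDR values of 9.85e-05 and 0.00472.

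Of 22 genes of a YAP target list, which includes Ccn1, Ccn2 and Amotl2, 9 fell and 1 rose with PA in siNtc, 10 fell and 1 rose in siErk3, and 10 fell and 2 rose in siMk5. The list median in siNtc was -0.07, close to the -0.03 of all genes, and in siErk3 and siMk5 it was -0.23 and -0.24. Beside Amotl2 and Ccn2, the calls with the smallest FDR in siNtc were Ccdc80 (-0.91), Asap1 (-0.51) and Tgfb2 (-0.55), which fell, and the growth arrest gene Gadd45a (0.91), which rose. Ankrd1, a muscle ankyrin repeat protein and much-used YAP target that is named here after its values were seen, rose in siMk5 (0.42), and its values of 0.34 in siNtc and 0.20 in siErk3 passed the FDR alone. None of the 22 was called on silencing.

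Of 21 genes of the Hippo pathway upstream of YAP, 5 rose and 3 fell in siNtc, 5 rose and 4 fell in siErk3, and 2 rose and 4 fell in siMk5, with list medians of 0.04, -0.02 and 0.02. These 8, 9 and 6 calls of 21 stand beside 30.6%, 32.1% and 29.7% of all genes tested, and nothing is read from the share. The protocadherin Fat4 fell most in siNtc (-1.61), from 37.4 ± 1.89 to 12.3 ± 1.27 CPM, and the LIM protein Ajuba, which inhibits Lats kinases, fell by 0.58 on the log2 scale. The kinases Lats1 (0.42) and Taok3 (0.47), the Lats activator Mob1a (0.50) and Wtip (0.44) rose. None of the 21 passed in the 4 silencing comparisons.

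Serum response factor (SRF) and its cofactors drive genes of the actin cytoskeleton. Of 13 genes of this list, 10 fell in siNtc and 11 each in siErk3 and siMk5, none rose, and the list median was -0.99, -1.26 and -1.09. In siNtc the transgelin gene Tagln fell from 308 ± 20.8 to 123 ± 7.45 CPM (log2 fold change -1.33), and on the log2 scale Actg2 fell by 1.51, Myl9 by 1.28, Filip1l by 1.34, Acta2 by 1.06 and Cnn2 by 0.99. None of the 13 was called on silencing. Of 9 other matricellular genes, 5 fell in siNtc, namely Thbs1 (-1.57), Thbs2 (-1.07), Sparc (-0.46), Postn (-0.41) and Sparcl1 (-0.82), while Spp1, the osteopontin gene, rose (0.97). In siErk3 7 fell and 1 rose, and in siMk5 5 fell and 1 rose. On Erk3 silencing in PA, 2 of the 9 were lower, Thbs1 (-0.41, edgeR FDR 0.0205) and Thbs3 (-0.51, FDR 0.0219), beside 0.556% of all genes. The Thbs1 libraries of siErk3 PA overlapped those of siNtc PA (1192 ± 225 against 1582 ± 255 CPM, SD, n = 3). Those of Thbs3 were separate but low (4.60 ± 0.308 against 6.56 ± 0.862 CPM).

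Among 11 receptors of CCN proteins that were tested, Itgb5 (-0.66) and Lrp1 (-0.49) fell in siNtc and Itgb3 (0.40) and Sdc4 (0.45) rose. In siErk3 3 fell and 1 rose, and in siMk5 3 fell and none rose. In siNtc, siErk3 and siMk5, 4, 4 and 3 of the 11 were called, beside 30.6%, 32.1% and 29.7% of all genes tested. The alpha-v integrin gene Itgav fell in siErk3 (-0.55) and siMk5 (-0.47), and in siNtc its value of -0.31 passed the FDR (8.04e-08, edgeR) but not the fold criterion. TGF-beta signaling is an inducer of Ccn2. Of 12 of its genes, 4 fell and 3 rose with PA in each arm. The list medians were 0.05, -0.04 and 0.01 in siNtc, siErk3 and siMk5. In siNtc Tgfb3 (-1.01), Smad3 (-1.001), Tgfbr2 (-0.63) and Tgfb2 (-0.55) fell, and the inhibitory Smad7 (0.97) was among the 3 that rose. None of these receptors and TGF-beta genes was called on silencing.

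**Figure D4:**
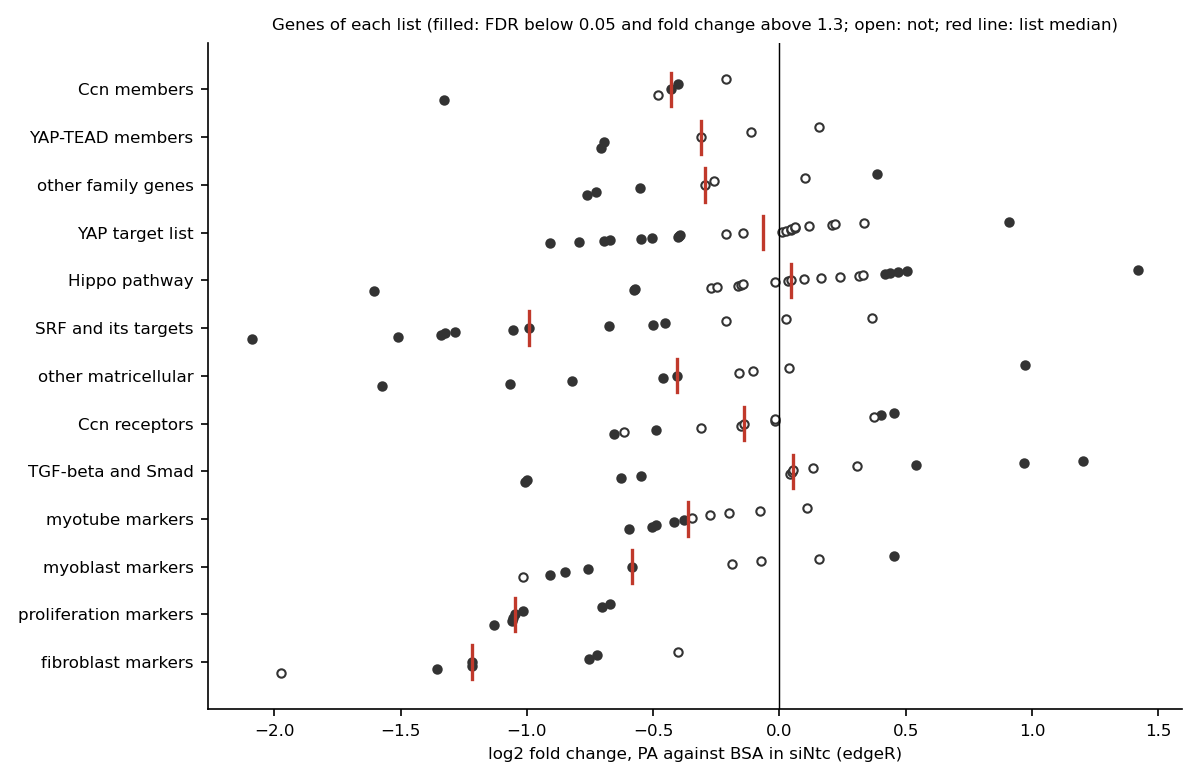
log2 fold change of PA against BSA in siNtc (horizontal axis) for the tested genes of 13 lists, with genes past both criteria filled, other genes open and the list median in red. The SRF list (median -0.99), the proliferation markers (-1.05) and the fibroblast markers (-1.22) lie further to the left than the Ccn genes (-0.43) and the YAP-TEAD genes (-0.31), while the Hippo pathway is spread around 0 (0.04).

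Markers of cell state moved with PA alongside the Ccn and YAP-TEAD genes. The summed level of 7 proliferation markers ranged from 998 to 1091 CPM in the BSA libraries and from 415 to 543 CPM in the PA libraries, and all 7 fell in each arm. The sum of 7 fibroblast markers ranged from 8552 to 10840 CPM in BSA and from 2600 to 4650 CPM in PA. It was made up almost wholly of the collagen genes Col3a1 and Col1a1, with medians of 5500 and 1030 CPM over the 18 libraries. The next highest marker, Dcn, had a median of 42.4 CPM, so the fall of the sum describes mainly the collagen genes. Of the 7 markers, 5 were called lower in siNtc and siErk3 and 6 in siMk5. Thy1, a defining surface marker, had a median of 0 CPM. Of 9 markers of myoblasts and reserve cells, 4 fell and 1 rose in siNtc, 5 fell and 1 rose in siErk3, and 4 fell in siMk5. In siNtc Pax7 (log2 fold change -0.85), Myod1 (-0.91), Cd34 (-0.58) and Id3 (-0.76) fell and Sdc4 (0.45) rose. The sum of the 9 ranged from 453 to 501 CPM in BSA and from 389 to 449.5 CPM in PA. Its most abundant genes were Sdc4 and Vcam1, neither of which fell in siNtc, so the sum understates the fall of the 4 called lower there. Myf5, Id1 and Pax3 were not called in siNtc. The 10 myotube markers summed to 12910 to 16170 CPM in BSA and 11890 to 13920 CPM in PA, and 5 fell in siNtc, 2 in siErk3 and 2 in siMk5. The part of these markers in the fall of the Ccn and YAP-TEAD genes was not tested.

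On silencing, no proliferation, fibroblast or myoblast marker was called in any of the 4 comparisons with siNtc. The myoblast marker Vcam1 was lower in siMk5 PA (log2 fold change -0.30) and passed the FDR (0.000119, edgeR) but not the fold criterion. Among myotube markers, Myh8 was higher in siErk3 in BSA (log2 fold change 0.57) and PA (0.60) and Myh3 in siErk3 BSA (0.39), and Mb was lower in siMk5 BSA (-0.40). The value of Myh3 in siErk3 PA was close to that in BSA, at 0.376. It passed the FDR (2.38e-05, edgeR) and narrowly missed the fold criterion.

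The genes whose group means most resembled those of Ccn1 over the 6 groups, among 12733 genes with a mean of at least 1 CPM, were Zfp78, Mmgt2, Ccdc112, 3425401B19Rik and Neil1. The root mean square difference of their centred log2 means from those of Ccn1 was 0.033 to 0.048, where Ccn1 itself spanned 0.59. For Ccn2, which spanned 0.65, they were Ccdc112, Tmem176b, Atxn7l1, Donson and Mdfi, at 0.038 to 0.050. Ccdc112 stood on both lists. With 6 group means that fall mainly into 2 media, such likeness is a description of the profile.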

How the data were processed

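Libraries were poly(A)-selected and stranded, and were sequenced as read pairs. The authors aligned reads to GRCm39 with STAR, kept marked duplicates, and deposited the counts of read pairs per gene, not normalized, from featureCounts 2.0.0 (Ensembl 105, strand setting 2, primary alignments, mapping quality of at least 3), which admits some pairs fitting 2 places. A deposited table of log2 values was not used here. No column of another sample was used.

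Tests were made in edgeR 4.0.16 (R 4.3.3) with TMM on the 21772 of 55414 genes reaching a summed count of 10, by its quasi-likelihood method with all 18 libraries in a single model of 6 groups, and Benjamini-Hochberg FDR over all genes tested. Called means an FDR below 0.05 and a fold change above 1.3, as in the study's methods. SE is the absolute log2 fold change divided by the root of F. An exact permutation of 3 against 3 libraries cannot go below 0.1 and was not used for calls. Symbols come from GENCODE M39, overlaps from the exon coordinates of the count table (Ensembl 105) and promoter windows from RefSeq (GRCm38.p6). The members and the gene lists were chosen with earlier results of these data known. The text names all members, up to 6 called genes per list and comparison by FDR, the 5 genes most like Ccn1 and Ccn2 over group means, and the silenced genes, and some list genes are not reported here. Replicate libraries were distinct beyond counting noise. Alternatives were DESeq2 1.42.0, its size factors, 3 filters on low counts, a replicate block, FDR alone, only the groups compared, the 18S share as a covariate, and each library left out. The fit was checked on simulated counts. Figures were drawn with matplotlib 3.10.9.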

Additional observations from a re-analysis of the deposited data

Results flagged for a closer look

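The response of Ccn1 to PA differed between siErk3 and siNtc by the interaction term, at -0.383 on the log2 scale (SE 0.071, edgeR FDR 0.0407). All 3 PA libraries were lower than all 3 BSA libraries in both arms, and the fall was 0.60 in siErk3 and 0.21 in siNtc. The result passed under 3 of 9 other settings and 1 of 12 omissions of a library. Among these settings, FDR alone keeps the same fit and drops only the fold criterion, so passing there was given.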

How the results depend on the processing

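Of 21 member values that passed both criteria, 18 did so under every alternative and with every library left out, and none of 321 values over these alternatives changed sign. The exceptions were Ccn1 in the siErk3 interaction, Ccn2 in siNtc and Ccn3 in siMk5, given with their results. The values of FDR alone are those of the main fit, so there no passing value could be lost and no sign could change. The siErk3 interaction counted 0 members in place of 1 with DESeq2, DESeq2 size factors, filterByExpr, at least 10 counts in every library, no filter or the 18S share as a covariate, and 0 to 1 with a library left out. In siErk3 against siNtc in BSA, 1 member (Ccn5) was called with no filter or with the compared groups alone. In siErk3 against siNtc in PA, 1 (Ccn5) was called with no filter, 1 (Ccn1) by FDR alone, and 0 to 1 with a library left out. By FDR alone the count was 2 in siMk5 PA and 9 in place of 5 for PA in siNtc. For the 89 values that did not pass, the alternatives gave 1449 values, of which, beside those by FDR alone, 5 passed, all of Ccn5, and 51 had the other sign. Over all genes, counts moved by more than 1.5 times as follows. With no filter, 208 in place of 121 were called in siErk3 PA, 61 in place of 14 in siMk5 BSA, 201 in place of 128 between siErk3 and siMk5 in BSA, and 72 in place of 8 and 130 in place of 46 in the siErk3 and siMk5 interactions. By FDR alone they were 263 in place of 171 in siErk3 BSA and 186 in siErk3 PA. With the compared groups alone they were 71 in siErk3 PA and 4 in the siErk3 interaction, which had 4 with DESeq2 size factors and 0 with filterByExpr or 10 counts in every library. With the 18S share they were 64 between siErk3 and siMk5 in BSA and 2 in the siMk5 interaction. With a library left out they ran from 113 to 144 in siErk3 BSA, 6 to 25 in siMk5 BSA, 0 to 24 in the siErk3 interaction and 22 to 67 in the siMk5 interaction. Replicate numbers did not pair libraries: correlations of same-numbered libraries' deviations from group means ran from -0.61 to 0.52, and 6 of 18 libraries correlated best with their own number. With the replicate block, the members called were 0 in the 4 silencing comparisons, 5, 7 and 8 for PA in siNtc, siErk3 and siMk5, and 1 and 0 in the interactions, as without it. Ccn3 had 10 to 31 and Ccn5 56 to 415 counts per library, and the cause of these changes was not tested.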
